A study of Caenorhabditis elegans with 2 samples.

Results

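The genes described are the heat shock protein, DnaJ and chaperonin genes of Caenorhabditis elegans, set against binding of the muscle transcription factor UNC-120 in embryos. They are the protein-coding genes of the WBcel235 annotation whose symbol begins with hsp-, dnj- or cct-. This gave 59 of 19973 nuclear protein-coding genes, of which 22 are hsp, 29 dnj and 8 cct genes. UNC-120 occupancy was measured by chromatin immunoprecipitation and sequencing (ChIP-seq) with an antibody against GFP. The single group was strain OP659, of genotype unc-119(tm4063) III; wgIs659, which expresses UNC-120 carrying GFP and FLAG at its C terminus. Both libraries came from whole embryos of both sexes and of several stages, taken 3 hours after synchronization by egg bleaching, and are labelled as biological replicates 1 and 2. Since every embryonic tissue contributed chromatin, the tissue in which a region was bound cannot be told apart. UNC-120 was supplied by a transgene, and there was no strain without the tag among the samples analysed here.

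Chaperones bind unfolded proteins and help them to fold. HSP70 proteins do so in cycles of ATP hydrolysis that J-domain proteins (the dnj genes) start and nucleotide exchange factors such as HSP110 reset, while HSP90 acts later on kinases, receptors and, with UNC-45, on muscle myosin. The cct genes encode the TRiC ring, the chaperonin that folds actin and tubulin, and small heat shock proteins hold unfolded proteins without ATP. Heat shock factor HSF-1 switches on the inducible genes through heat shock elements, in which the half-sites GAA and TTC alternate; UNC-120 itself is a MADS box factor of the SRF type, whose classical site is the CArG box.

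A gene is called bound here when an annotated 5' end had a summit no more than 1000 bp upstream or 500 bp downstream of it. The summits are those of the authors' list thresholded by the irreproducible discovery rate (IDR), a measure of reproducibility between replicates. That list held 2946 nuclear regions, with scores of at least 185; the pooled list of both libraries held 29995 nuclear regions down to a score of 40.1 and supplied weaker regions. The score is the authors' own value of peak strength, on a scale that the sources used here do not state, and it is used only within a list. A rank of 1 is the strongest nuclear region of its list. Read depth is unknown, and with 1 group and lists of regions no test was possible; shares of genes carry Wilson 95% intervals, which take genes as independent although some share a summit.

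The printed windows show the sequence under the strongest hsp and cct summits and under the dnj-13 summit, which is close in score to the strongest dnj summit. Others lie under the summits of a mitochondrial and an endoplasmic reticulum chaperone gene, and between the divergent heat-inducible hsp-16 genes. They are taken from the plus strand of the RefSeq copy of WBcel235. Capitals mark heat shock half-site pairs (GAANNTTC or TTCNNGAA), joined where they overlap, except that they also mark GAGAGAGA at dnj-13 and mark only TGACGTG at hsp-3, on either strand.
hsp-110 (chrIII:8447010-8447210): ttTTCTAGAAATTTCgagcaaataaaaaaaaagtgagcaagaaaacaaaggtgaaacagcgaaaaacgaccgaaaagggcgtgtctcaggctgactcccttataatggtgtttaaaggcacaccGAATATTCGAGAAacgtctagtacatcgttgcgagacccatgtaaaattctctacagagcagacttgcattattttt
hsp-60 (chrIII:1619030-1619230): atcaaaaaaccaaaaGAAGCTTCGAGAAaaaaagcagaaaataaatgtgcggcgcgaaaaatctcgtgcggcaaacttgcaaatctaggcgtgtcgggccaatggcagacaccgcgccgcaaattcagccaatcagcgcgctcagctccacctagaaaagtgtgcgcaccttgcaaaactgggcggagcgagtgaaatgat
dnj-13 (chrII:11545460-11545660): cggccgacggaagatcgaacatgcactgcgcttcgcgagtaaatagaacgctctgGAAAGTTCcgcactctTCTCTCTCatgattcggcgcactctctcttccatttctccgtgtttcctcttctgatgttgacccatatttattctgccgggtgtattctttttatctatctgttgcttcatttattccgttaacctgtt
cct-6 (chrIII:5855862-5856037): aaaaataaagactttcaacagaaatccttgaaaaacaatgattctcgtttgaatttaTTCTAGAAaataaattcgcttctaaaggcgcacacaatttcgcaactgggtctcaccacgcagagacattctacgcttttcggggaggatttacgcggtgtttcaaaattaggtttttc
hsp-3 (chrX:6092105-6092288): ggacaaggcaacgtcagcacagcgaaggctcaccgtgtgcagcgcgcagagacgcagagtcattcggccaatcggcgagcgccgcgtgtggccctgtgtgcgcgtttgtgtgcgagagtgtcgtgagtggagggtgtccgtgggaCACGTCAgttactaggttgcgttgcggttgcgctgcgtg
hsp-16.2/hsp-16.41 (chrV:1804958-1805197): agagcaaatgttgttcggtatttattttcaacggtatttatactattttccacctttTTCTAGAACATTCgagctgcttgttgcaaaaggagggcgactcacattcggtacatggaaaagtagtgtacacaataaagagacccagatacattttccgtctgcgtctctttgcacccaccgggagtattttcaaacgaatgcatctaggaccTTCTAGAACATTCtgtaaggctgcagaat
hsp-16.49/hsp-16.11 (chrV:9089777-9090076): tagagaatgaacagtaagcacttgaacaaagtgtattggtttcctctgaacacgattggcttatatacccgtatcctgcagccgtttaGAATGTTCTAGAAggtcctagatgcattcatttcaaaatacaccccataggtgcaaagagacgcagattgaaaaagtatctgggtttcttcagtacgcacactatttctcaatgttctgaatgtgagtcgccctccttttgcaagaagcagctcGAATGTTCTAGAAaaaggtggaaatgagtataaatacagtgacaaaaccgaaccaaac
The hsp-110, hsp-60 and hsp-16.2/hsp-16.41 windows hold overlapping pairs that make 3 alternating half-sites, and so does the stretch between the unbound genes hsp-16.49 and hsp-16.11, and the dnj-13 and cct-6 windows hold a single pair. The hsp-3 window holds none.

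Of the 59 chaperone genes, 21 were bound (35.6%, interval 24.6 to 48.3), against 9.26% of all protein-coding genes (1849 of 19973). By family, these were 10 of 29 dnj genes (34.5%, interval 19.9 to 52.7), 8 of 22 hsp genes (36.4%, interval 19.7 to 57) and 3 of 8 cct genes (37.5%, interval 13.7 to 69.4). The share of each family lay above that of all genes, and the intervals of the families overlapped over most of their length. No set test was made. For the cct genes the share depended on the assignment: with each summit given to the nearest 5' end, 0 of 8 were bound. The strongest summit per bound gene had a median score of 432 in the hsp genes, 427 in the cct genes and 325 in the dnj genes, and 356 over all bound chaperone genes, against 301 over all bound genes. A further 21 of the 38 unbound chaperone genes (55.3%) had a weaker region of the pooled list in the window, against 34.2% of unbound genes in general. This was so for 12 of 19 unbound dnj genes, 5 of 14 hsp genes and 4 of 5 cct genes, which left 17 chaperone genes with no region at all.

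**Figure D1:**
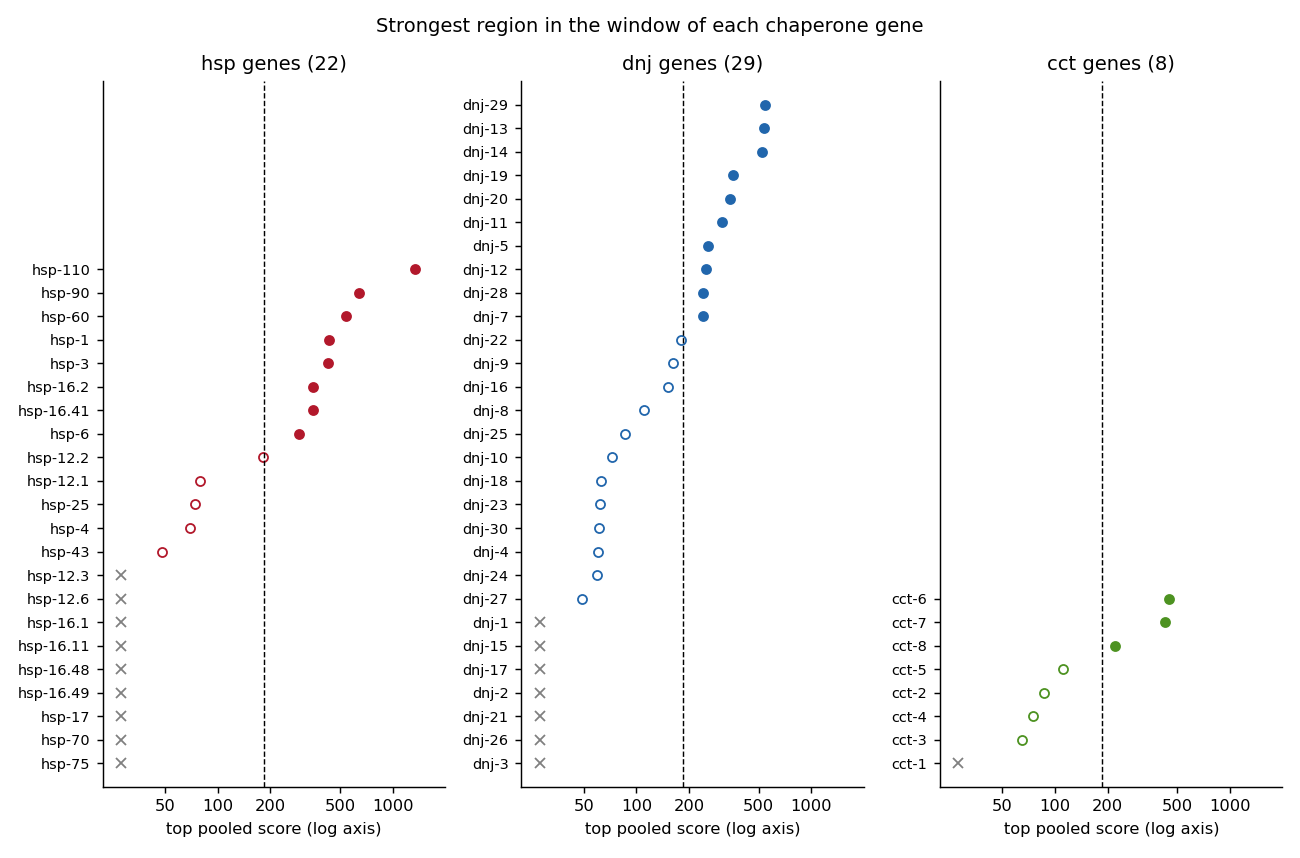
Score of the strongest pooled region (log axis) in the window of each hsp, dnj and cct gene. Filled circles are bound genes, open circles unbound genes with a weaker region, crosses genes with no region, and the dashed line is the lowest IDR score, 185. The 10 bound dnj genes lie between 241 and 541, and hsp-110 at 1336 lies apart from the rest.

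Among other sets of housekeeping genes, the share of bound chaperone genes lay below that of the cytosolic ribosomal protein genes and above that of the proteasome genes. Of 78 rpl and rps genes, 49 were bound (62.8%, interval 51.7 to 72.7), and of 33 pas, pbs, rpt and rpn genes 7 were bound (21.2%, interval 10.7 to 37.8). The interval of the chaperone genes lay wholly below that of the ribosomal genes and overlapped that of the proteasome genes; no test of these differences was made.

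The hsp genes were put into classes from their textbook roles, and expression was not measured here. The constitutive class holds genes expressed without stress, and it does not exclude genes that stress also induces. Its genes were mostly bound. A summit was called at 6 of 7 (85.7%, interval 48.7 to 97.4), with a median score of 490. The strongest chaperone summit of all belonged to hsp-110, which encodes the HSP110 exchange factor of HSP70. It lay at position 8447110 of chromosome III, 201 bp upstream of the hsp-110 5' end and 243 bp upstream of the 5' end of rpn-3, a subunit of the proteasome cap that is transcribed the other way. Its score was 1336 and its rank 9, and it scored 682 (rank 7) in replicate 1 and 657 (rank 12) in replicate 2. It was thus among the strongest regions of the genome in both libraries.

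The gene of the cytosolic HSP90, hsp-90, had 2 summits in 1 region of chromosome V, both inside an intron of the longer transcript and upstream of the 5' end of the shorter one. The stronger, at position 14685789, lay 371 bp upstream of that 5' end with a score of 647 (rank 222); replicate 1 gave 340 (rank 185) and replicate 2 gave 303 (rank 293). The weaker, at 14685991, lay 169 bp upstream with a score of 194 (rank 2776), and replicates 1 and 2 gave 111 (rank 2201) and 79.1 (rank 4387). Both were also assigned to C47E8.4, on the opposite strand, and the stronger one was nearer to the C47E8.4 5' end, at 304 bp.

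The summits at 2 mitochondrial chaperone genes stood nearer to the neighbouring gene. At hsp-60, the mitochondrial chaperonin, the summit at position 1619130 of chromosome III had a score of 545 (rank 360), with 291 (rank 293) in replicate 1 and 248 (rank 539) in replicate 2. It lay 612 bp upstream of hsp-60 and 201 bp upstream of the divergent gene Y22D7AL.10. At hsp-6, the mitochondrial HSP70, the score was 290 (rank 1506), and the summit lay 451 bp upstream of hsp-6 but 149 bp upstream of C37H5.5. The replicates gave hsp-6 ranks of 1370 in replicate 1 and 1885 in replicate 2. The constitutive gene without a region was hsp-75, the mitochondrial HSP90 (TRAP1), whose start lies 100 bp behind the end of R151.8 on the same strand.

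The HSP70 genes hsp-1 and hsp-3 each had a summit assigned to no other gene. For hsp-1, the constitutive cytosolic HSP70, it lay 401 bp upstream at position 17278558 of chromosome IV, with a score of 435 (rank 649), 224 (rank 589) in replicate 1 and 225 (rank 703) in replicate 2. For hsp-3, an HSP70 of the endoplasmic reticulum (BiP), it lay 64 bp upstream at position 6092188 of chromosome X, with a score of 430 (rank 671), 202 (rank 745) in replicate 1 and 227 (rank 686) in replicate 2. The other BiP gene, hsp-4, which endoplasmic reticulum stress induces, was unbound: its strongest region scored 69.5 (rank 13152). The hsp-3 and hsp-4 values thus fell on opposite sides of the IDR threshold.

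Against the 6 of 7 constitutive hsp genes, a summit was called at 2 of 7 heat-inducible hsp genes (28.6%, interval 8.22 to 64.1). That interval includes the 9.26% of all protein-coding genes that were bound. The intervals of these 2 small classes overlapped, and the difference was not tested. The 2 bound genes, the small heat shock protein genes hsp-16.2 and hsp-16.41, are divergent neighbours on chromosome V and shared 1 summit at position 1805106. It lay 149 bp upstream of hsp-16.2 and 72 bp upstream of hsp-16.41, with a score of 353 (rank 1042), 190 (rank 858) in replicate 1 and 170 (rank 1289) in replicate 2. The 5 others, hsp-16.1, hsp-16.11, hsp-16.48, hsp-16.49 and the HSP70 gene hsp-70, had no region even in the pooled list.

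Of these 5, 4 lie in sequence that occurs more than once in the genome. The pairs hsp-16.1/hsp-16.48 and hsp-16.49/hsp-16.11 sit in 2 exact inverted copies of 1881 bp, chrV:9086861-9088741 and chrV:9089156-9091036, which are 414 bp apart. Of all 50-base stretches in the windows of these 4 genes, 94.6% to 100% occurred elsewhere too, against at most 10.3% in any other chaperone gene and under 5% in 51 of the 59. How the authors' processing treated reads that match several places is not stated in the sources used here, and its part in the absence of regions at these genes was not tested. In the copies themselves the pooled list held 1 summit, outside the windows of the 4 genes; the list of replicate 1 held 1 and that of replicate 2 held 0. Among the 3 heat-inducible genes in unrepeated sequence, 2 were bound. The heat-inducible class leaves out F44E5.4 and F44E5.5, heat-inducible HSP70 genes without an hsp- symbol. They shared an IDR summit (score 426, rank 686). They were picked from the summits with 3 half-sites, so they are not counted here.

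None of the 7 other small heat shock protein genes was bound. The interval, 0 to 35.4%, includes the 9.26% of all protein-coding genes that were bound. A weaker region was found at 4 of the 7 (57.1%), against 34.2% of unbound genes in general. The strongest, at hsp-12.2, lay 12 bp upstream with a score of 182 (rank 2988), just under the lowest IDR score; it ranked 2396 in replicate 1 and 3923 in replicate 2. The others scored 79.3 at hsp-12.1, 74.4 at hsp-25, whose protein is found at muscle dense bodies, and 48.1 at hsp-43. No region fell in the windows of hsp-12.3, hsp-12.6 and hsp-17. The small heat shock protein genes with an IDR summit were thus the divergent pair hsp-16.2 and hsp-16.41. RefSeq names hsp-16.20 and hsp-16.21 as well, which Ensembl lists without these symbols, and their windows held no pooled region.

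The bound dnj genes encode cytosolic, secretory pathway and ribosome-associated J-domain proteins. The strongest 3 had nearly equal scores. The summit of dnj-29, the Sec63 subunit of the translocon, scored 541 (rank 366), with 253 (rank 428) in replicate 1 and 293 (rank 325) in replicate 2. It lay 369 bp upstream of dnj-29 at position 14113477, but 159 bp upstream of ndua-2, a subunit of respiratory complex I; fld-1 beyond it was also within reach, at 717 bp. The summit of dnj-13, a cytosolic HSP40 of the DNAJB type, scored 537 (rank 374), with 232 (rank 538) in replicate 1 and 307 (rank 280) in replicate 2. It lay 141 bp upstream of dnj-13 at position 11545560 of chromosome II, inside an intron of dhgd-1, and annotated non-coding transcripts of both strands run over it.

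The summit of dnj-14, the cysteine string protein of synaptic vesicles, scored 524 (rank 401), with 226 (rank 568) in replicate 1 and 299 (rank 306) in replicate 2. It stood at position 4712045 of chromosome X, between dnj-14 (297 bp) and the gliotactin-like gene glit-1 (234 bp). The summit of dnj-19, a DNAJA type HSP40, scored 356 (rank 1028; replicate 1, 155 and rank 1266; replicate 2, 204 and rank 887). It lay at position 5505196 of chromosome V, 339 bp upstream of dnj-19 and 57 bp upstream of the nuclear hormone receptor gene nhr-47. For dnj-20, the endoplasmic reticulum J-protein of the DNAJB11 type, the score was 342 (rank 1117; replicate 1, 192 and rank 829; replicate 2, 157 and rank 1501). This summit, at position 9619530 of chromosome II, lay in an intron of the longer transcript and 360 bp upstream of an internal 5' end, far from the divergent neighbour of the longer form.

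The remaining bound dnj genes had scores between 241 and 309. They were dnj-11 (309), the homologue of the ribosome-associated protein zuotin; dnj-5 (258), whose summit was the farthest of any chaperone gene at 788 bp; dnj-12 (249), a DNAJA type HSP40; dnj-28 (242); and dnj-7 (241), the homologue of the kinase inhibitor P58IPK. The replicates differed most at dnj-12, which ranked 1081 in replicate 1 and 4053 in replicate 2. Just under the threshold came dnj-22 with 180 (rank 3040), followed by dnj-9 with 163, dnj-16 with 152 and dnj-8 with 110. The weakest bound chaperone gene was cct-8 with 220, so that no chaperone gene's strongest summit scored between 182 and 220.

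Of the 8 subunits of the TRiC ring, 3 were bound, all from divergent promoters. The summit of cct-6 scored 451 (rank 586), with 195 (rank 805) in replicate 1 and 235 (rank 622) in replicate 2; it lay at position 5855962 of chromosome III, 275 bp upstream of cct-6 and 56 bp upstream of the aldehyde dehydrogenase gene alh-9. The summit of cct-7 scored 427 (rank 676), with 175 (rank 1012) in replicate 1 and 266 (rank 432) in replicate 2, at position 1871922 of chromosome V, 324 bp upstream of cct-7 and 115 bp upstream of T10B5.4. The summit of cct-8 scored 220 (rank 2316), with 150 (rank 1346) in replicate 1 and 80.2 (rank 4282) in replicate 2, at position 1094371 of chromosome IV, 451 bp upstream of cct-8 and 170 bp upstream of Y55F3AR.2. In each case the neighbour's 5' end was the nearer one. Weaker regions scored 111 at cct-5, 86.7 at cct-2, 74.9 at cct-4 and 64.5 at cct-3, and cct-1 had none. The subunits, which the ring holds in equal number, were thus spread from no region to rank 586.

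**Figure D2:**
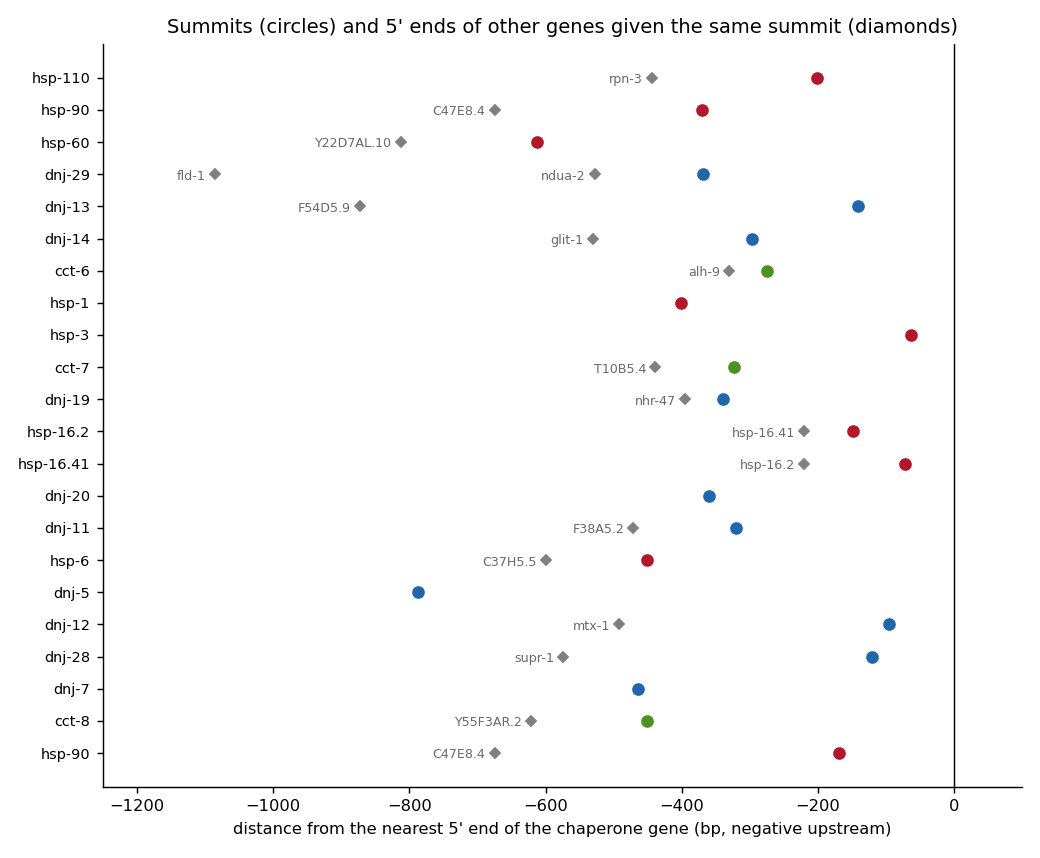
Position of each summit at a bound chaperone gene (circles; hsp red, dnj blue, cct green) in bp from the nearest 5' end of that gene, ordered by score, with the 5' ends of other genes given the same summit (grey diamonds). All summits lie upstream of that 5' end, the farthest at dnj-5 (788 bp) and the nearest at hsp-3 (64 bp).

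Shared promoters were common. For 16 of the 21 bound chaperone genes (76.2%) the strongest summit was also assigned to another gene, against 42.1% of all bound genes (779 of 1849). The 21 distinct summits all lay upstream of the chaperone 5' end they were assigned to, which for hsp-90 and dnj-20 is an internal one, so that their summits lie in introns of the same gene. Of the 21, 17 lay outside protein-coding genes, though some of these lay in annotated non-coding transcripts. None lay within 200 bp of a tRNA, snoRNA, snRNA or rRNA gene. These positions were not counted over all nuclear summits. The nearest 5' end belonged to a chaperone gene at 11 of the 21. Each summit was also counted for 1 gene alone, that of the closest 5' end up to 2000 bp away. By this rule 13 of 59 chaperone genes were bound (22%), against 9.61% of all genes. The cct genes then had 0 of 8, the heat-inducible hsp genes 1 of 7 and the constitutive hsp genes 4 of 7.

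Besides fld-1 at dnj-29, C47E8.4 at the weaker hsp-90 summit and the hsp-16 pair, the partners farther from the summit than the chaperone gene were rpn-3 at hsp-110, F54D5.9 at dnj-13 (141 bp to dnj-13 and 732 bp to F54D5.9), the metaxin gene mtx-1 at dnj-12 (96 bp to dnj-12 and 396 bp to mtx-1) and supr-1 at dnj-28 (121 bp to dnj-28 and 453 bp to supr-1). The dnj-11 summit lay 321 bp from dnj-11 and 150 bp from its partner F38A5.2. Annotated non-coding RNAs ran over the summits of dnj-13, dnj-14, dnj-19 and hsp-6. Which gene of a pair, if either, responds to the binding was not measured.

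The arrangement of neighbours differed between the chaperone genes and the genome, so shares were also set out by arrangement. It was read at the outermost annotated 5' end of each gene, whereas a gene could be bound at any of its 5' ends. The dnj-20 summit, counted as head-to-head, and the hsp-90 summits, counted as other, lie upstream of internal 5' ends. A divergent upstream neighbour with its 5' end within 1000 bp (head-to-head) was found for 45.8% of the chaperone genes and 17.1% of all genes. Of the head-to-head chaperone genes, 15 of 27 were bound (55.6%), against 17.7% of all head-to-head genes. Of those whose upstream neighbour ended within 500 bp on the same strand (close tandem), 0 of 11 were bound, against 4.91% of such genes. At so low a share, 0 of 11 does not set the chaperone genes apart. With any other neighbour, or a start inside another gene, 6 of 21 were bound (28.6%), against 8.22%. Head-to-head dnj genes were bound in 7 of 12 cases, hsp genes in 5 of 9 and cct genes in 3 of 6; 10 of the 11 close tandem genes were dnj genes.

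**Figure D3:**
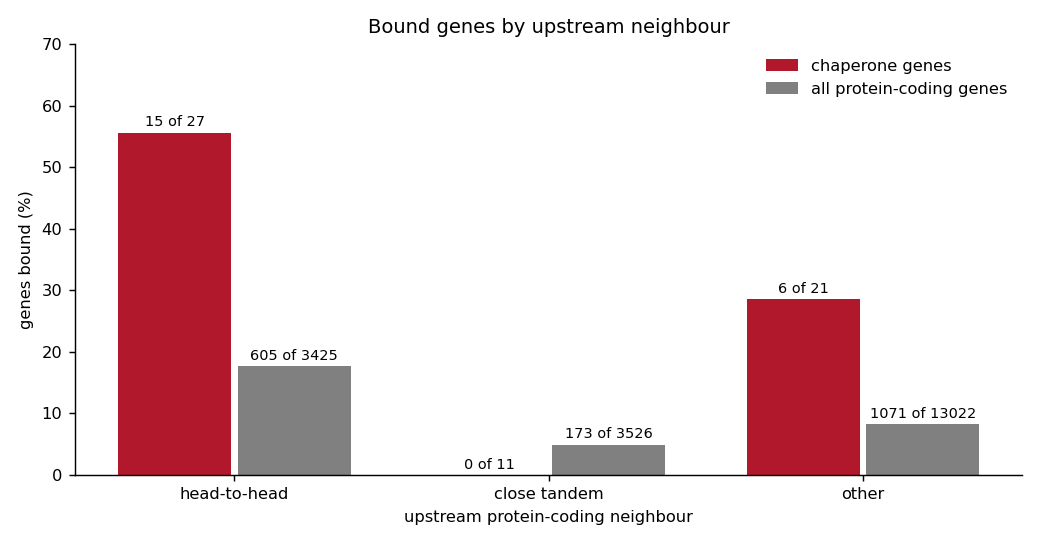
Percent of genes bound, by arrangement of the upstream protein-coding neighbour, for chaperone genes (red) and all protein-coding genes (grey), with numbers of bound genes above the bars. The chaperone bar is the higher one for head-to-head genes (55.6% against 17.7%) and other genes (28.6% against 8.22%). It is at 0 for the 11 close tandem genes, against 4.91% of all close tandem genes.

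The IDR list was cut by a measure of reproducibility between replicates, so agreement of both libraries was partly built in. The strongest summit of each bound chaperone gene had the same score and rank in the IDR list as in the pooled list. A place in the IDR list therefore does not show that a region was strong in each library on its own. Of the 21 summits at chaperone genes, 18 lay among the top 2946 regions of each replicate's own list (85.7%). This was near the 77.6% of all nuclear IDR summits. The 3 others, at dnj-12, cct-8 and the weaker hsp-90 site, ranked within the top 2946 in replicate 1 and at 4053, 4282 and 4387 in replicate 2.

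**Figure D4:**
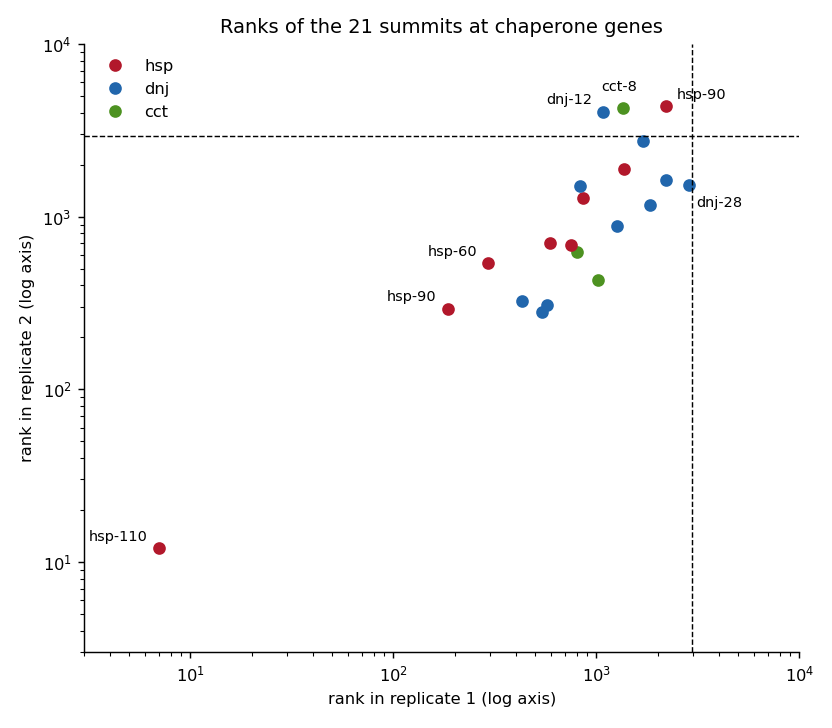
Rank of each of the 21 summits at chaperone genes in replicate 1 and replicate 2 (log axes; hsp red, dnj blue, cct green). Dashed lines mark rank 2946; 18 summits lie inside both lines, hsp-110 at ranks 7 and 12, and dnj-12, cct-8 and the weaker hsp-90 summit above the line of replicate 2.

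Heat shock half-site pairs were frequent under these summits. GAANNTTC or TTCNNGAA was found within 100 bp of 10 of the 21 summits (47.6%), against 11.9% of all nuclear summits; these were the summits of hsp-110, hsp-90 (the stronger one), hsp-60, hsp-1, hsp-16.2/hsp-16.41, dnj-13, dnj-19, dnj-12, cct-6 and cct-8. In 4 windows (19%) overlapping pairs made 3 alternating half-sites, against 0.781% of all summits. They were those of hsp-110, hsp-60, hsp-16.2/hsp-16.41 and dnj-12, so genes listed as constitutive and genes listed as heat-inducible both carried them. Both strands were searched, and a match is a description of the sequence and not a measured HSF-1 site.

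The distance from the half-sites to the summit varied. In the printed windows the 3 half-sites were centred 30 bp and 92 bp from the hsp-110 summit, 79 bp from that of hsp-60, and 69 bp and 85 bp from that of hsp-16.2/hsp-16.41. The single pair was 42 bp from the summit at dnj-13 and 40 bp at cct-6. Closer pairs were centred 4 bp from the dnj-19 summit and 14 bp from the stronger hsp-90 summit.

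In the promoters of the genes, from 250 bp upstream to 50 bp downstream of the start, the pair was found in 28 of 59 chaperone genes (47.5%), against 32.6% of all genes. It was found in 12 of 21 bound (57.1%) and 16 of 38 unbound chaperone genes (42.1%), and in 32.3% of all bound genes. The 3 half-sites were found in 11 of 59 (18.6%), against 1.97% of all genes. They occurred in all 7 heat-inducible hsp genes, and in 6 of 21 bound and 5 of 38 unbound chaperone genes. The 5 unbound ones were the unbound heat-inducible genes.

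Each of the other short sequences occurred at 2 or fewer of the 21 summits. GAGAGAGA occurred at 2 of the 21 summits (9.52%, dnj-13 and hsp-1), against 16.3% of all summits. With 50 bp each side it occurred at 2 of 21, against 9.88% of all summits. TGACGTG, the core of the site of the unfolded protein response factor XBP-1, occurred at 2 (9.52%, hsp-3 and dnj-28), against 2.31%. In promoters, TGACGTG was found in 4 of 21 bound chaperone genes (19%), against 3.35% of all bound genes. It was found in 1 of 38 unbound chaperone genes (2.63%). The E-box CAGCTG occurred at 0 of 21, against 9.4%, and the CArG box at 0 of 21, against 1.46%. With 21 windows, fewer than 1 CArG box would be found at the share of all summits.

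**Figure D5:**
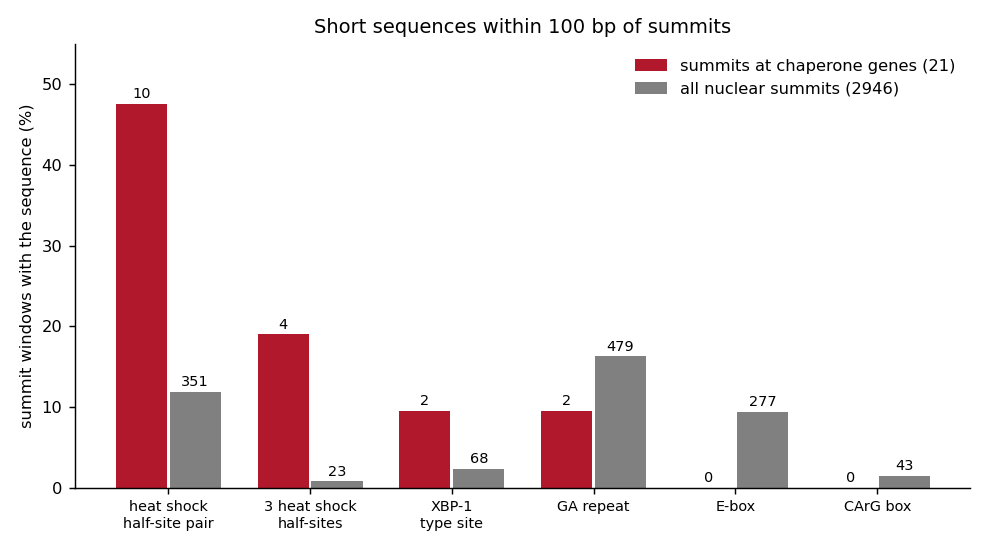
Percent of windows (100 bp each side of a summit) that hold each short sequence, for the 21 summits at chaperone genes (red) and all 2946 nuclear summits (grey), with numbers of windows above the bars. The half-site pair (10 of 21) and the 3 half-sites (4 of 21) are the tallest chaperone bars; E-box and CArG box are at 0.

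Partners of the chaperones outside these symbols were also found among the bound genes. Of a list of 20 co-chaperone and regulator genes, 9 were bound (45%, interval 25.8 to 65.8), against 9.26% of all protein-coding genes. Of the 14 that are not prefoldin genes 8 were bound (57.1%, interval 32.6 to 78.6), and of the 6 prefoldin genes 1 (16.7%), with an interval of 3.01 to 56.4 that includes the share of all genes. The strongest was cdc-37, the kinase adaptor of HSP90, with a score of 994 (rank 45; rank 77 in replicate 1 and 34 in replicate 2) 206 bp downstream of its 5' end. The prefoldin gene pfd-1 scored 382, the BAG2 homologue unc-23, which muscle attachment needs, 349, and the p23 gene daf-41 316. They were followed by sti-1 (291), which joins HSP70 to HSP90, and by bag-1 (279), hsf-1 (278), sgt-1 (249) and hip-1 (201). The hsf-1 summit lay 185 bp upstream at rank 1627, with ranks of 1082 in replicate 1 and 2352 in replicate 2. The hip-1 summit rested mainly on replicate 1, where it ranked 1088, against 20727 in replicate 2. The myosin chaperone gene unc-45 was unbound, with a strongest region of 95.2. The list was chosen with earlier results of these data known. Only the whole list was planned as a set, and the prefoldin split was added to it. Of the bound genes, cdc-37, pfd-1, daf-41 and hip-1 have a divergent upstream neighbour within 1000 bp. With each summit given to the nearest 5' end, daf-41 and pfd-1 were lost. That left 7 of 20 bound (35%), against 9.61% of all genes.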

How the data were processed

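The authors deposited lists of regions for builds ce10 and ce11; the ce11 lists were used, and the ce10 lists were not. Column 7 is a score that the authors' software gave each region, and the last column is the offset of the summit, per the format of the deposited files. The aligner, peak caller and handling of multiply matching reads are not stated in the sources used here. The labels name a possible control experiment, which was not analysed here. No read counts were among the values, so depth is unknown.

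WBcel235 (the sequence of ce11) with Ensembl release 115 gene models gave the 5' ends of protein-coding transcripts; sequences and 2 duplicated hsp-16 symbols were resolved with RefSeq. All 59 members were found. Setting aside 5 mitochondrial regions left 2946; 0 regions passed a chromosome end. Replicate ranks come from the nearest summit within 200 bp, so neighbouring summits can share one. Coordinates count from 1. Python 3.11.15 and matplotlib 3.10.9 were used. On simulated summits in 200 gene windows, 100% were found.

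The members and lists were chosen with earlier results of these data known. All cct and hsp genes, bound dnj genes, the 4 strongest unbound dnj genes, shared-promoter partners and bound co-chaperones are named. Neighbour arrangement and the repeat check were chosen after values were seen. Alternatives changed the window, assignment, threshold, overlap rule, motif width and replicate.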

Additional observations from a re-analysis of the deposited data

How the results depend on the processing

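Of 55 alternative values, 48 stayed within 1.5 times the reported count and 7 did not. Giving each summit to the nearest 5' end moved the chaperone genes bound to 13, the cct genes to 0 and the heat-inducible hsp genes to 1; 10 genes were lost because a neighbour's 5' end was nearer, and dnj-24 and hsp-25 were gained. Keeping the stronger 50% of peaks left 6 dnj genes (20.7%) and 4 co-chaperone genes (20%), against 4.86% of all genes. The half-site pair was found at 5 of 21 summits with 50 bp each side and at 16 of 21 with 200 bp, against 4.89% and 28.5% of all summits. Using the top 2946 regions of 1 library, 20 chaperone genes were bound without replicate 1 and 23 without replicate 2. Without replicate 1, cct-8 and dnj-12 were lost and cct-1 was gained; without replicate 2, dnj-9 and hsp-12.2 were gained. Under every setting 7 chaperone genes were bound (hsp-110, hsp-90, hsp-1, hsp-3, hsp-16.41, dnj-13 and dnj-20), and 31 were bound under none. No paired analysis was possible because only 1 group was sampled. Depth limits what can be said of unbound genes: without read counts, a gene with no region is not shown to lack binding.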

Other observations

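The symbol rule leaves out some chaperone genes, which were looked at after the summits with 3 half-sites had been listed. F44E5.4 and F44E5.5 encode heat-inducible HSP70 proteins and are divergent neighbours on chromosome II. They shared 1 IDR summit at position 11759471, with a score of 426 (rank 686), 215 (rank 654) in replicate 1 and 239 (rank 599) in replicate 2. It lay 160 bp upstream of F44E5.4 and 191 bp upstream of F44E5.5. The pair was picked from the list of summits with 3 half-sites, so its summit and half-sites are a description. Divergent heat-inducible genes with 3 half-sites in the promoter did not all have a region: hsp-16.2 and hsp-16.41 shared a summit (score 353, rank 1042), while hsp-16.1/hsp-16.48 and hsp-16.49/hsp-16.11, with gaps of 349 bp and 311 bp and repeated sequence, had none.

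In the genome 23 summits had 3 half-sites within 100 bp. Of these, 4 lay at the chaperone genes, 7 were assigned to no protein-coding gene, and others lay at the co-chaperone gene bag-1 (score 279) and between the HSP70 cofactor gene hip-1 and the myosin light chain gene mlc-5 (score 201).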
